A study of Mus musculus with 12 samples.

Results

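The levels of 9 long RNAs with little or no protein-coding capacity were followed in mouse veins: Malat1, Neat1, H19, Meg3, Rian, Mirg, Kcnq1ot1, Gas5 and Snhg1. They were chosen by gene name, and each name matched 1 of the 43346 genes in the deposited table. The 12 libraries were made from vein RNA taken 7 days after surgery. The AVF-CKD group (n = 6) was the venous limb of an arteriovenous fistula, a surgical joining of an artery to a vein, in a model of chronic kidney disease. The sham group (n = 6) was jugular vein after sham surgery. Because AVF-CKD joins the fistula with the kidney disease, their separate effects cannot be told apart. The labels do not give strain, sex, age or the number of mice behind a library, so each p-value measures only how far these libraries spread, which may be partly technical.

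Long noncoding RNAs act as RNA rather than through a protein. Malat1 and Neat1 are neighbours in the genome and stay in the nucleus, where Malat1 gathers in the speckles that store splicing factors and Neat1 is the scaffold of paraspeckles, bodies built from the RNA and its binding proteins. H19, Meg3, Rian and Mirg are imprinted and read from the maternal chromosome, while Kcnq1ot1 is imprinted and read from the paternal one. Each belongs to a cluster in which protein-coding growth regulators are read from the opposite parental chromosome. Gas5 and Snhg1 are spliced host transcripts whose introns release small nucleolar RNAs (snoRNAs), the guides of ribosomal RNA modification, and such hosts often begin with the pyrimidine-rich start typical of ribosomal protein mRNAs. Total RNA of a gene does not tell the parental copies apart.

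Several of these RNAs carry small RNAs within them. The miRNA table of RefSeq (build GRCm38.p6) matched 37 mature miRNAs to 4 of the 9 hosts, with 2 in H19, 3 in Meg3, 6 in Rian and 26 in Mirg. The 37 miRNAs had 36 different seeds, the bases 2 to 8 that pair with target RNAs. Both arms of miR-675 are shown because their hairpin lies in the RNA with the highest level per length, and miR-453 and miR-496a-5p because they are the pair that shares a seed. Capitals mark the seed.
miR-675-5p: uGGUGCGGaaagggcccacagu
miR-675-3p: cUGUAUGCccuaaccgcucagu
miR-453: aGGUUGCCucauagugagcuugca
miR-496a-5p: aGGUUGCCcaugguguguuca
The hairpin model of miR-675 lay wholly inside exons of H19, on chromosome 7. Those of miR-453 and miR-496a lay within Mirg on chromosome 12 with 0% of their bases in its exons, that is, in introns.

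Promoter windows of RefSeq, 250 bases before to 50 bases after a start site, matched 7 of the 9 genes with 9 windows (Malat1, Meg3, Rian, Mirg, Kcnq1ot1, Gas5 and Snhg1, not Neat1 and H19). The first 40 transcribed bases are shown for Gas5 and Snhg1 and for Rps27rt, Rps15a and Rpl34, the ribosomal protein genes among the 3 named genes whose levels were most like those of Gas5 or Snhg1 (Rps27rt for Gas5, the others for Snhg1). Rpl34 has 2 starts. Capitals mark the unbroken run of C and T at a start site whose first base is C; a start with another first base counts as a run of 0.
Gas5 start: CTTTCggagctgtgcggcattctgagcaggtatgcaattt
Snhg1 start: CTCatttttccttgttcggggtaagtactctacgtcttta
Rps15a start: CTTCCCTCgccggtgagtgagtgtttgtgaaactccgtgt
Rps27rt start: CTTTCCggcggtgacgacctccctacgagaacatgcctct
Rpl34 start, upstream: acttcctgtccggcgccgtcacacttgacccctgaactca
Rpl34 start, downstream: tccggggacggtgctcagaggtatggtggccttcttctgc
On GRCm38.p6 these starts lay at position 161035166 of chromosome 1 on the plus strand for Gas5 and at position 8723487 of chromosome 19 on the plus strand for Snhg1. The start of Rps15a lay at position 118116147 of chromosome 7 and that of Rps27rt at position 114982739 of chromosome 9, both on the minus strand. Those of Rpl34 lay at positions 130730398 and 130730337 of chromosome 3, also on the minus strand. At the starts shown, the run was 5 bases long in Gas5, 3 in Snhg1, 8 in Rps15a and 6 in Rps27rt, and both starts of Rpl34 had a run of 0. A start of C with at least 4 more pyrimidines after it was found in 2.51% of all 32851 promoter windows and in 17.6% of the 74 windows of ribosomal protein genes. Gas5 met that rule at 1 of its 2 start sites, and Snhg1 did not meet it.

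For Meg3 and Gas5, 1 promoter window each is shown, because it holds the letters TGACGTCA, the full cAMP response element. The 2 RNAs also varied in opposite directions across the libraries. Each gene has another window, with its start site at 109545398 for Meg3 and 161034601 for Gas5, that held 0 matches to the motifs marked here. Capitals mark every match on either strand to TGACGTCA, to TATAAA (the TATA box) or to CCAAT (the CCAAT box).
Meg3 promoter, chr12:109540746-109541045, plus strand: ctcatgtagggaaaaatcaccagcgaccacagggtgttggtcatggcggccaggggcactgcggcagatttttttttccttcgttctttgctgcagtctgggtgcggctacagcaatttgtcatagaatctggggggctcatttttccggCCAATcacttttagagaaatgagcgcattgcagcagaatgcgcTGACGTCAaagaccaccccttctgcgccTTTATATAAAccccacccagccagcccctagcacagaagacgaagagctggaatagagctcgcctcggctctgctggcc
Gas5 promoter, chr1:161034916-161035215, plus strand: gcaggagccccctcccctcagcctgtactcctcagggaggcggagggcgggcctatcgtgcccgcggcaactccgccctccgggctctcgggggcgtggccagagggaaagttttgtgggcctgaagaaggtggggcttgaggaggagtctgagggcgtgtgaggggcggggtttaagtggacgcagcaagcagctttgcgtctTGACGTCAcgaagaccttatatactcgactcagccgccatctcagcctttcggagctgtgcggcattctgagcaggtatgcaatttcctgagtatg
Counting bases from the start site, TGACGTCA began at -57 in Meg3 and at -46 in Gas5. Meg3 also held CCAAT at -100 and TATAAA at -25, with a match to TATAAA on the other strand at -29 that overlaps it. Of all 32851 windows of this length, 1.79% held TGACGTCA, 13.6% held TATAAA and 37.4% held CCAAT. These are matches of letters, not measured binding.

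The libraries held 38653830 to 60142016 counts, and the 9 RNAs took 0.265% to 0.424% of them. The 6 endothelial markers summed to 892 to 1447 CPM (a counts-per-million scale, relative to the library's total after TMM scaling) in AVF-CKD, against 1070.4 to 1490.3 CPM in sham, and the 6 smooth muscle markers to 1001 to 1799 CPM in AVF-CKD, against 1358 to 2207 CPM in sham. Other tissue came along in both groups: 12 skeletal muscle markers summed to 1008 to 14315 CPM in AVF-CKD, against 552 to 15202 CPM in sham, and 10 fat markers to 853 to 1760 CPM in AVF-CKD, against 1042 to 4703 CPM in sham. No marker of these lists was at 0 in all libraries. In whole tissue, fewer cells of a type and less RNA per cell cannot be told apart. The libraries with title numbers 1 to 3 and those with numbers 4 to 6 also stood apart in both groups, a split seen in the data and not stated in the labels. The mean level of 85 ribosomal protein genes was 7.98 to 8.20 log2 CPM in the AVF-CKD libraries 1 to 3 and 7.54 to 7.70 in 4 to 6, against 8.05 to 8.33 in sham 1 to 3 and 7.73 to 7.90 in sham 4 to 6.

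All 9 RNAs were detected in every library, and none differed detectably between AVF-CKD and sham veins. With edgeR's quasi-likelihood test and Benjamini-Hochberg adjustment over the 18965 genes that passed a filter on low counts, 0 of the 9 were called at an adjusted p below 0.05, as were 0% of all genes higher and 0% lower. Without adjustment edgeR listed 0 of the 9 at a p below 0.05, against 9.34% of all genes tested (1772 genes, 5.26% higher and 4.08% lower). The values of the 2 groups overlapped for all 9, where 0.638% of all genes had groups that did not overlap. Malat1, Neat1, H19 and Meg3 had positive log2 fold changes (AVF-CKD over sham) and Rian, Mirg, Kcnq1ot1, Gas5 and Snhg1 negative ones, so 5 of 9 were negative, against 50.9% of all genes. The median of the 9 was -0.07, against -0.002 for all genes tested. DESeq2 called 67 genes (0.353%) higher and 39 (0.206%) lower, and limma voom called 0. None of these tests called one of the 9.

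**Figure D1:**
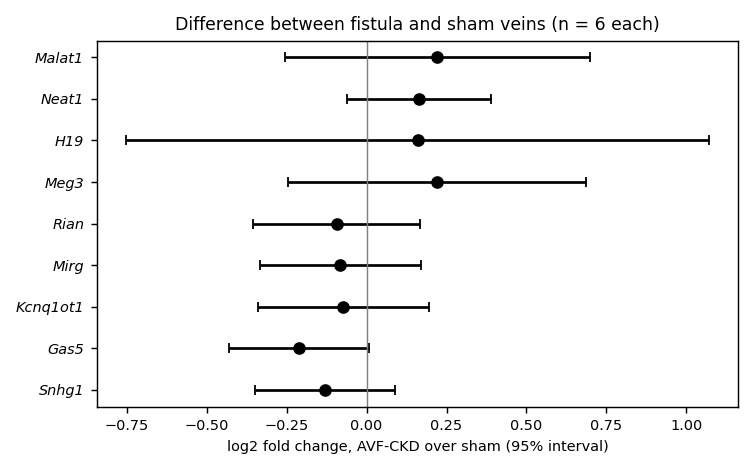
Log2 fold change of each RNA, AVF-CKD over sham (x axis; 0 means no difference), from the edgeR fit over 6 libraries in each group, with its 95% interval as the bar. All 9 intervals include 0; that of H19 is the widest, from -0.75 to 1.07, and that of Gas5 reaches 0 at its upper end.

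Per length, on the deposited RPKM scale, H19 had the highest mean level over the 12 libraries, 239 RPKM. It was followed by Malat1 at 73.8, Neat1 at 42.0 and Gas5 at 30.5 RPKM. Rian at 19.6 RPKM and Meg3 at 15.1 RPKM came next, ahead of Snhg1 at 8.22 and Mirg at 2.49 RPKM. Kcnq1ot1 was last with a mean of 0.078 RPKM, over a model of 84395 bases that held 258 to 514 counts per library. Within a library this order held in all 12 for each pair of neighbours, except that H19 stood above Malat1 in 11 and Rian above Meg3 in 11. Across libraries the RPKM ranges overlapped between H19 and Malat1, Neat1 and Gas5, Gas5 and Rian, and Rian and Meg3, and not between the other neighbouring pairs.

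**Figure D2:**
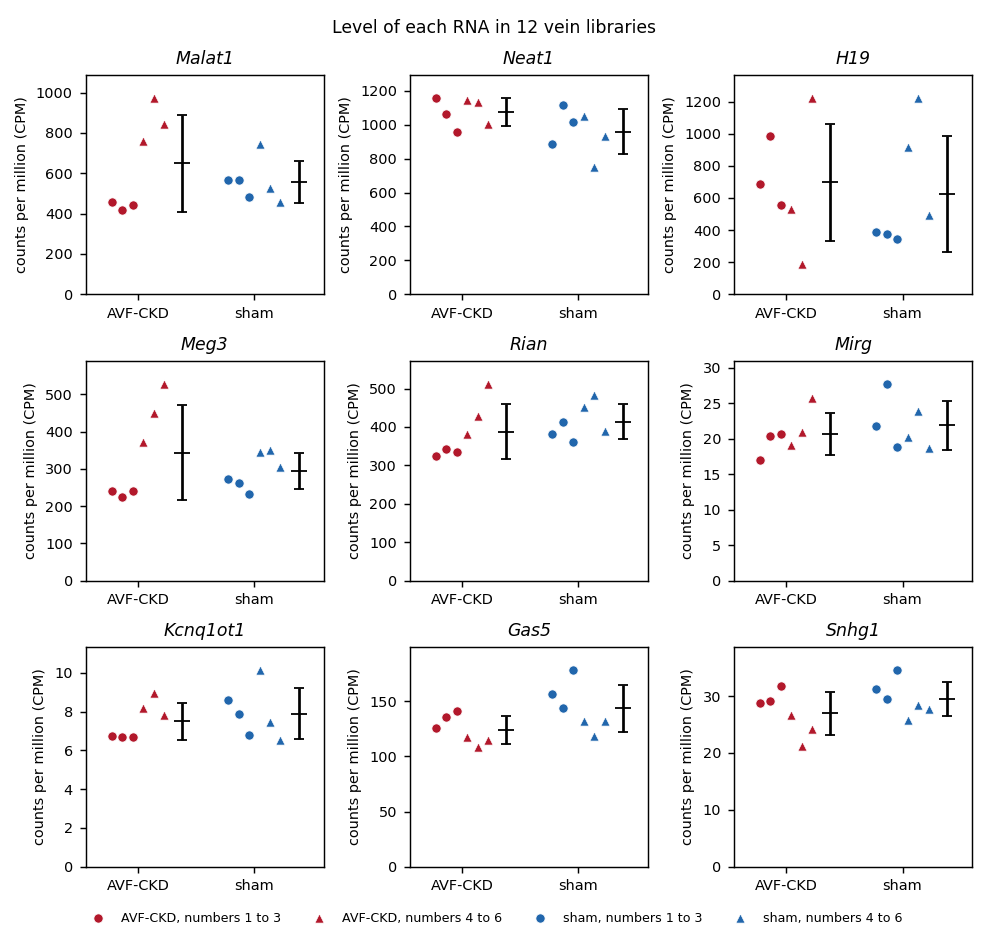
Level of each RNA on the counts-per-million scale (CPM, y axes from 0) in the 6 AVF-CKD and the 6 sham libraries; circles are libraries with title numbers 1 to 3, triangles those with numbers 4 to 6, and the bar is the group mean with its SD. The groups overlap for all 9 RNAs, H19 ranges from 191 to 1222 CPM, and every triangle of Meg3 lies above every circle.

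Of the nuclear RNAs, Malat1 (chromosome 19, 5795690 to 5802672, minus strand, GRCm38) had its lowest, median and highest level at 419, 608 and 973 CPM in AVF-CKD, against 457, 546 and 744 CPM in sham. The AVF-CKD libraries fell into 2 sets: numbers 1 to 3 lay at 419 to 456 CPM and numbers 4 to 6 at 761 to 973 CPM. The sham libraries spread less widely, and those 2 sets overlapped. Malat1 averaged 649 ± 240.0 CPM in AVF-CKD and 557 ± 102 CPM in sham (SD, n = 6 each), a log2 fold change of 0.22 ± 0.22 (edgeR, SE, adjusted p = 0.799). Within numbers 1 to 3 all AVF-CKD libraries were below all sham libraries (log2 fold change -0.29 ± 0.11, SE, n = 3 each, edgeR adjusted p = 0.469), and within numbers 4 to 6 all were above (0.58 ± 0.20, edgeR adjusted p = 0.427). The difference between the 2 sets was not tested. How many of all genes separate in this way within a set was not computed, so the separation is not shown to be particular to Malat1. Gas5 was also wholly lower in AVF-CKD within both sets, Rian and Kcnq1ot1 within numbers 1 to 3, and Meg3 was wholly higher within numbers 4 to 6. The share of counts in the ribosomal DNA models was placed much as Malat1 was, with overlap within numbers 1 to 3. It was 4.18% to 5.51% in AVF-CKD 1 to 3, against 5.05% to 6.25% in sham 1 to 3, and 6.22% to 7.46% in AVF-CKD 4 to 6, against 3.89% to 5.08% in sham 4 to 6. Across the 12 libraries Malat1 and that share had r = 0.795 (permutation p = 0.0124, adjusted over 36 relations 0.140) and rho = 0.846 (permutation p = 0.00787, adjusted 0.129), with 0.784 within numbers 1 to 3, 0.905 within numbers 4 to 6 and 0.669 without the 2 farthest libraries. The part of that share in the values of Malat1 was not tested. In the tested correlations here and below, r over the 12 libraries and without the 2 farthest had each group's mean subtracted. Values of r within numbers 1 to 3 or 4 to 6 had not, so the difference between the groups enters them.

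Neat1 (chromosome 19, 5824708 to 5845478, minus strand) was the steadiest of the 9. Its lowest, median and highest levels were 957, 1098 and 1157 CPM in AVF-CKD, against 753, 974.8 and 1117 CPM in sham. The lowest library was sham 5, and the other 11 lay between 886 and 1157 CPM. Neat1 averaged 1076 ± 82.5 CPM in AVF-CKD and 960 ± 131 CPM in sham (SD, n = 6 each), with a log2 fold change of 0.16 ± 0.10 (edgeR, SE, adjusted p = 0.658). Its coefficient of variation over all libraries was 11.8%, against 17.4% for the median tested gene. Of 13 genes for paraspeckle proteins, all of them tested, 7 had positive and 6 negative fold changes, with a median of 0.009, and 0 were called. Hnrnpk stood at 428 ± 16.2 CPM in AVF-CKD and 451 ± 35.4 CPM in sham, and Nono, a core paraspeckle protein, at 198 ± 7.73 CPM in AVF-CKD and 208 ± 9.09 CPM in sham (SD). The smallest unadjusted p of the list was that of Pspc1, a partner of Nono (log2 fold change -0.18 ± 0.07, SE, edgeR adjusted p = 0.502), followed by Hnrnph3 (-0.13 ± 0.06, edgeR adjusted p = 0.549).

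Where reads fell along Neat1 and Malat1 could be read in part from small gene models nested inside them. The deposited counts appear to give reads to both the host and the nested model, but the counting options were not given and this was not tested. The densities and shares of nested models here and below rest on it. The 3 nested models of Neat1, Gm27533, Gm27505 and Gm28006, lie near its 5′ end, with their nearest edges 1041, 731 and 441 bases from it, and held 9.85, 12.9 and 11.1 times the counts per base of the whole Neat1 model. In Malat1 the nested Gm27694, of 86 bases, held 2.33 times the counts per base of its host, and Gm20417, of 425 bases, 1.02 times. A read that overlaps only part of a short model may be counted on it in full, which raises its counts per base, so a ratio above 1 in a short model does not by itself show higher coverage there. The 5′ end of Neat1 is shared by its short and long isoforms, and the rest of the model belongs to the long isoform. Gm27505 took 6.97% ± 0.18 of Neat1 counts in AVF-CKD and 6.75% ± 0.63 in sham (SD, n = 6 each), a difference of 0.22 percentage points (exact permutation test, two-sided, p = 0.439, and 0.439 after adjustment over 2 such shares). The strand setting of the counting was not given, so reads of a model on the opposite strand cannot be told apart from those of Malat1: 6.49% of the exonic bases of Malat1 are also covered by such a model, Gm37376, whose counts equalled 10.3% of those of Malat1.

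**Figure D3:**
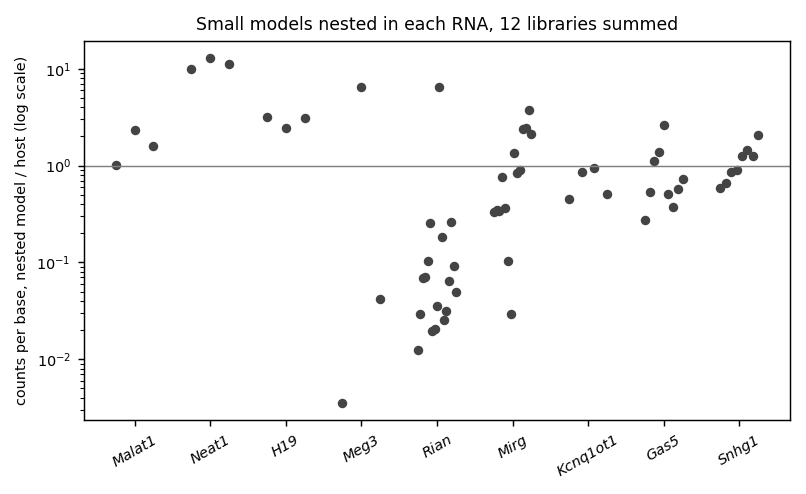
Counts per base of each gene model of at most 460 bases nested in the 9 RNAs, divided by the counts per base of its host, on a log scale (y axis), with the 12 libraries summed. The line at 1 marks equal counts per base, and short models may lie above it through reads that overlap them only in part. A model with 0 counts is not drawn, nor are longer models such as the opposite-strand Gm26906 in Meg3 (1228 bases). The 3 models at the 5′ end of Neat1 lie between 9.85 and 12.9, while most of those in Rian lie below 1.

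H19 (chromosome 7, 142575529 to 142578143, minus strand), a fetal growth-restraining RNA that stays on in muscle after birth, had the widest spread of the 9. Its lowest, median and highest levels were 191, 624 and 1221 CPM in AVF-CKD, against 342, 443 and 1222 CPM in sham. Both groups thus reached the same height, AVF-CKD 6 and sham 5 being highest, and the lowest library was AVF-CKD 5. H19 averaged 696 ± 364 CPM in AVF-CKD and 624 ± 363 CPM in sham (SD, n = 6 each), with a log2 fold change of 0.16 ± 0.42 (edgeR, SE, adjusted p = 0.936). The highest library was 6.41 times the lowest, and the coefficient of variation, 52.8%, was at percentile 92.9 of all genes tested. Within numbers 1 to 3 every AVF-CKD library (559 to 987 CPM) was above every sham library (342 to 389 CPM), with a log2 fold change of 1.02 ± 0.21 (SE, n = 3 each, edgeR adjusted p = 0.458). The share of all genes separated in this way within a set was not computed. Within numbers 4 to 6 the groups overlapped, with a log2 fold change of -0.44 ± 0.64 (edgeR's adjusted p = 0.823), and the difference between the sets was not tested. Leaving out AVF-CKD 6 turned the overall log2 fold change to -0.08.

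Igf2, the growth factor read from the paternal chromosome next to H19, followed H19 across the libraries. Igf2 had 10.6, 32.4 and 64.5 CPM as its lowest, median and highest level in AVF-CKD, against 7.27, 17.4 and 82.6 CPM in sham, and both genes were highest in the same 2 libraries. Over the 12 libraries, with each group's mean subtracted, their log2 CPM had a Pearson r of 0.909 (permutation p = 7e-05, adjusted over 3 imprinted pairs 0.00021) and a Spearman rho of 0.902 (permutation p = 0.00037, adjusted 0.00111). The correlation was 0.951 within numbers 1 to 3 and 0.938 within numbers 4 to 6, and 0.892 without the 2 libraries farthest from the median of H19. H19 exceeded Igf2 by count ratios of 15.9, 18.8 and 35.5 (lowest, median, highest) in AVF-CKD, against 14.8, 29.1 and 51.4 in sham. The difference in log2 ratio was -0.44 (n = 6 each; exact permutation test, two-sided, p = 0.160, and 0.240 after adjustment over 3 ratios).

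The level of H19 also followed the skeletal muscle markers. Its Pearson r with their mean log2 CPM was 0.779 (permutation p = 0.00299, adjusted over 36 relations of the 9 RNAs with tissue and library measures 0.108), so the adjusted test was not passed. The Spearman rho was 0.839 (permutation p = 0.00121, adjusted 0.0436), which passed. The correlation was 0.760 within numbers 1 to 3 and 0.822 within numbers 4 to 6, and 0.813 without the 2 libraries farthest from the median of the muscle markers. In 0 of the 36 relations, with muscle, fat, the clock gene Dbp or the ribosomal DNA share, was the adjusted Pearson p below 0.05, and in 1 of 36, this one, the adjusted Spearman p. H19 also ran opposite to Dbp, with r = -0.63 (permutation p = 0.0482, adjusted 0.248) and rho = -0.73 (permutation p = 0.0143, adjusted 0.129), neither of which passed. The separate parts of muscle and Dbp in the level of H19 were not tested. With the muscle mean as a covariate, chosen after the data were seen, the log2 fold change of H19 was 0.21 ± 0.28 (edgeR, SE, adjusted p = 0.847).

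Small models inside H19 also held counts. The Mir675 model held 32663 counts over the 12 libraries, 8.65% of those of H19, at 2.44 times its host's density, and 2 opposite-strand models, Gm27483 and Gm27786, held 3.14 and 3.12 times. These 3 models are 84, 71 and 70 bases long, so reads that overlap them only in part may raise these ratios. The share of Mir675 lay between 8.34% and 9.003% in AVF-CKD, against 8.20% and 9.14% in sham. These libraries were made for long RNA, so counts on a hairpin model do not measure the mature miR-675 sequences shown above.

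**Figure D4:**
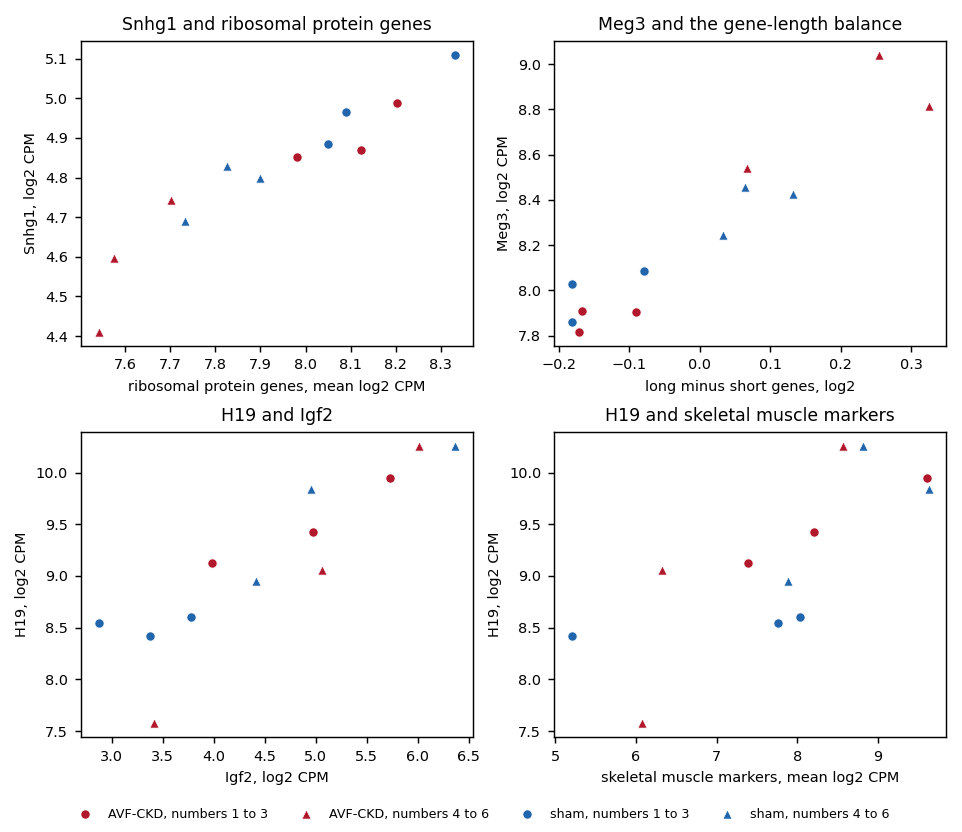
Each panel plots 1 of the 9 RNAs (y axis, log2 CPM) against a measure in the same library (x axis): Snhg1 against the mean of 85 ribosomal protein genes, Meg3 against the balance of long and short genes, H19 against Igf2, and H19 against the mean of 12 skeletal muscle markers. Red marks AVF-CKD and blue sham, circles the title numbers 1 to 3 and triangles 4 to 6. Snhg1 rises with the ribosomal protein genes within both sets of numbers, Meg3 separates circles from triangles, and H19 follows Igf2 with both groups mixed along the line.

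Kcnq1ot1 (chromosome 7, 143212155 to 143296549, minus strand) is the silencing RNA of the Kcnq1 domain and lies inside the gene Kcnq1 on the opposite strand. Its lowest, median and highest levels were 6.67, 7.29 and 8.94 CPM in AVF-CKD, against 6.52, 7.66 and 10.1 CPM in sham. The groups overlapped, and the highest library was sham 4. Kcnq1ot1 averaged 7.51 ± 0.96 CPM in AVF-CKD and 7.90 ± 1.32 CPM in sham (SD, n = 6 each), with a log2 fold change of -0.07 ± 0.12 (edgeR, SE, adjusted p = 0.889) that was 0.01 without sham 4 and 0.05 within numbers 4 to 6. The host gene Kcnq1, a potassium channel, stood at 2.25 ± 0.55 CPM in AVF-CKD and 2.21 ± 0.51 CPM in sham, and its unspliced reads cannot be told apart from those of Kcnq1ot1, since the strand setting of the counting was not given. Cdkn1c, the cell cycle inhibitor that the domain silences on the paternal chromosome, had 34.7 ± 3.48 CPM in AVF-CKD and 45.5 ± 9.46 CPM in sham (log2 fold change -0.39 ± 0.12, SE, edgeR adjusted p = 0.409). The count ratio of Kcnq1ot1 to Cdkn1c was 0.187, 0.203 and 0.271 (lowest, median, highest) in AVF-CKD, against 0.119, 0.191 and 0.219 in sham, a log2 difference of 0.31 (exact permutation test, two-sided, p = 0.108, adjusted 0.240). No correlation between the 2 genes was detected across the libraries, with a Pearson r of 0.153 (permutation p = 0.700, adjusted 0.700) and a Spearman rho of 0.287 (permutation p = 0.416, adjusted 0.416). Pearson r was 0.245 without the 2 libraries farthest from the median of Kcnq1ot1, 0.962 within numbers 1 to 3 and -0.26 within numbers 4 to 6.

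The 3 maternal RNAs of the Dlk1-Dio3 cluster on chromosome 12 lie in a row on the plus strand: Meg3 (109541001 to 109571726), a growth-restraining RNA, Rian (109603940 to 109661716), a snoRNA host, and Mirg (109729764 to 109749460), a miRNA host. Meg3 had 225, 306 and 527 CPM as its lowest, median and highest level in AVF-CKD, against 232, 288 and 351 CPM in sham. In both groups numbers 4 to 6 lay above numbers 1 to 3, at 373 to 527 CPM against 225 to 240.3 CPM in AVF-CKD and at 304 to 351 CPM against 232 to 272 CPM in sham; 2.36% of all genes tested were split in this direction. Meg3 averaged 343 ± 128 CPM in AVF-CKD and 294 ± 47.4 CPM in sham (SD, n = 6 each), with a log2 fold change of 0.22 ± 0.22 (edgeR, SE, adjusted p = 0.790). Within numbers 1 to 3 the log2 fold change was -0.12 ± 0.09 (edgeR, SE, adjusted p = 0.673) and within numbers 4 to 6 it was 0.43 ± 0.15 (edgeR's adjusted p = 0.427), a difference that was not tested.

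Rian had 325, 362 and 511 CPM as its lowest, median and highest level in AVF-CKD, against 362, 402 and 483 CPM in sham. AVF-CKD held both the highest library (number 6) and the lowest 3 (numbers 1 to 3). Rian averaged 388 ± 71.6 CPM in AVF-CKD and 414 ± 46.3 CPM in sham, with a log2 fold change of -0.09 ± 0.12 (edgeR, SE, adjusted p = 0.848). Mirg had 16.97, 20.5 and 25.8 CPM in AVF-CKD, against 18.7, 20.99 and 27.6 CPM in sham, with nearly the same medians. Mirg averaged 20.6 ± 2.91 CPM in AVF-CKD and 21.8 ± 3.44 CPM in sham (SD, n = 6 each), with a log2 fold change of -0.08 ± 0.12 (edgeR, SE, adjusted p = 0.861) that was 0.07 within numbers 4 to 6.

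The protein-coding partner in this cluster, Dlk1, a membrane protein that holds back fat cell differentiation, spread far more widely than the RNAs. Its lowest, median and highest levels were 5.68, 12.5 and 14.6 CPM in AVF-CKD, against 2.65, 18.9 and 99.3 CPM in sham. Sham 1 was the lowest of the 12 libraries and sham 5 the highest. The log2 fold change of Dlk1 was -1.32 ± 0.62 (edgeR, SE, adjusted p = 0.540). It was -0.36 without sham 5 and -0.66 with the title number as a replicate block. The count ratio of Meg3 to Dlk1 was 16.5, 27.4 and 65.6 (lowest, median, highest) in AVF-CKD, against 3.53, 16.0 and 103 in sham, a log2 difference of 0.77 (exact permutation test, two-sided, p = 0.297, adjusted 0.297). The size of this difference depended on single libraries. Without sham 1, which had the highest ratio, the log2 difference became 1.29 (exact permutation test, p = 0.00866, adjusted 0.0260). Without sham 5, which had the lowest ratio, it became 0.32 (exact permutation test, adjusted p = 0.589). No correlation between Meg3 and Dlk1 was detected across the 12 libraries (Pearson r = 0.269, permutation p = 0.224, adjusted 0.336; Spearman rho = 0.329, permutation p = 0.284, adjusted 0.416). Pearson r was 0.291 without the 2 libraries farthest from the median of Meg3, -0.56 within numbers 1 to 3 and -0.32 within numbers 4 to 6. Rtl1, a further gene of the cluster read from the paternal chromosome, stood at 4.09 ± 2.09 CPM in AVF-CKD and 3.59 ± 0.67 CPM in sham.

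Most small RNA models within these hosts held few counts. The 17 of Rian held a median of 62 counts over the 12 libraries, and 1 snoRNA model inside its exons, Gm24895, held 6396. The 14 miRNA models of Mirg held 4 to 523 counts each, and those of miR-453 and miR-496a shown above held 51 and 4. In Meg3 the exonic Mir1906-1 held 5287 counts and Mir770 held 40. The last exons of Meg3 overlap Gm26906 on the opposite strand, over 6.79% of the exonic bases of Meg3, and this model took 16.5% ± 3.07 of Meg3 counts in AVF-CKD and 18.8% ± 2.41 in sham (SD, n = 6 each; two-sided exact permutation test, p = 0.182, adjusted over 2 shares p = 0.364). Without a stated strand setting those reads cannot be divided between the 2 genes.

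The snoRNA hosts Gas5 (chromosome 1, 161034422 to 161038539, plus strand), a growth-arrest RNA, and Snhg1 (chromosome 19, 8723496 to 8726442, plus strand) followed one another across the libraries, and Gas5 had the smallest unadjusted p of the 9 in the comparison. Gas5 had 108, 122 and 141 CPM as its lowest, median and highest level in AVF-CKD, against 119, 138 and 178 CPM in sham. The 3 highest libraries were sham 1 to 3 and the 3 lowest AVF-CKD 4 to 6. Gas5 averaged 124 ± 12.7 CPM in AVF-CKD and 143 ± 21.1 CPM in sham (SD, n = 6 each), with a log2 fold change of -0.21 ± 0.10 (edgeR, SE, adjusted p = 0.548). It was negative in both sets of numbers, at -0.25 ± 0.10 within 1 to 3 and -0.17 ± 0.08 within 4 to 6 (edgeR, SE, adjusted p = 0.475 and 0.514). Snhg1 had 21.2, 27.8 and 31.7 CPM in AVF-CKD, against 25.8, 28.9 and 34.5 CPM in sham. In both groups its numbers 4 to 6 lay below its numbers 1 to 3, a split in this direction that 3.87% of all genes showed. Snhg1 averaged 27.0 ± 3.79 CPM in AVF-CKD and 29.5 ± 3.04 CPM in sham (SD, n = 6 each), with a log2 fold change of -0.13 ± 0.10 (edgeR, SE, adjusted p = 0.727).

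The snoRNA models of these hosts all held counts: 455 to 3648 each in the 9 of Gas5 and 235 to 1456 each in the 8 of Snhg1. All 17 lay wholly within annotated exonic bases of their hosts, whose annotation includes isoforms that keep introns. Of 13 other snoRNA host genes tested, 2 had positive and 11 negative fold changes, with a median of -0.08, and 0 were called. Over all genes tested, 50.9% were negative and the median was -0.002. Whether the host genes vary independently of one another was not tested. Gnb2l1, a ribosome component, averaged 876 ± 183 CPM in AVF-CKD and 912 ± 112 CPM in sham, and Hspa8, a chaperone, 582 ± 79.9 CPM in AVF-CKD and 590.1 ± 81.2 CPM in sham (SD). The smallest p-values of the list were those of the translation factor Eif4a2 (log2 fold change -0.23 ± 0.07, SE, edgeR adjusted p = 0.421) and of Snhg5 (-0.17 ± 0.07, edgeR adjusted p = 0.503).

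Some of the 9 RNAs varied together and some in opposite directions. Of the 36 pairs, 10 had an adjusted permutation p below 0.05 by Pearson r and 8 by both Pearson r and Spearman rho, after subtraction of each group's mean. The permutations here and below shuffled all libraries of a group, so any 2 genes that follow the split between numbers 1 to 3 and 4 to 6 can pass. The share of passing pairs among all genes was not computed, so the 10 pairs are not shown to be particular to these RNAs. Malat1, Meg3 and Rian were positively correlated with one another, as were Gas5 and Snhg1, and Kcnq1ot1 passed the test with Malat1 and with no other. Negative correlations passed for Snhg1 with Malat1, Meg3 and Rian, and for Gas5 with Meg3 and Rian. Malat1 and Gas5 did not pass (r = -0.57, permutation p adjusted 0.0991), and Neat1, H19 and Mirg were in none of the 10 pairs. The closest pair was Meg3 and Rian, with Pearson r = 0.925 (permutation p = 0.00024, adjusted 0.00432) and Spearman rho = 0.909 (permutation p = 0.0007, adjusted 0.00702). Within the sets of numbers, taken here and below without that subtraction, their correlation was 0.691 for 1 to 3 and 0.551 for 4 to 6. With subtraction, it was 0.8996 without the 2 libraries farthest from the median of Meg3. Malat1 and Kcnq1ot1 had r = 0.861 (permutation p = 0.00012, adjusted 0.00432) and rho = 0.804 (permutation p = 0.00038, adjusted 0.00684), and this held within numbers 1 to 3 (0.920), within numbers 4 to 6 (0.716) and without the 2 farthest libraries (0.835). Gas5 and Snhg1 had r = 0.846 (permutation p = 0.00041, adjusted 0.00492) and rho = 0.895 (permutation p = 0.00019, adjusted 0.00684), with 0.898 within numbers 1 to 3, 0.663 within numbers 4 to 6 and 0.927 without the 2 farthest libraries. Malat1 and Meg3 had r = 0.872 (permutation p = 0.0121, adjusted 0.0444) and rho = 0.853 (permutation p = 0.0145, adjusted 0.0523), with 0.912 within numbers 1 to 3, 0.786 within numbers 4 to 6 and 0.819 without the 2 farthest libraries. Malat1 and Rian had r = 0.762 (permutation p = 0.0123, adjusted 0.0444) and rho = 0.790 (permutation p = 0.0140, adjusted 0.0523), with 0.875 within numbers 1 to 3, 0.756 without the 2 farthest libraries and 0.199 within numbers 4 to 6.

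Within numbers 1 to 3 the opposed correlations had an r near 0 or above it, with group means not subtracted there. That r is not the same measure as the r over the 12 libraries. The 2 together cannot show whether the opposition held within the set. Meg3 and Snhg1 had r = -0.85 (permutation p = 0.00115, adjusted 0.00828) and rho = -0.87 (permutation p = 0.00131, adjusted 0.00943) over the 12 libraries. Within numbers 1 to 3 their r was -0.09 and within numbers 4 to 6 it was -0.73, and without the 2 libraries farthest from the median of Meg3 it was -0.90. Malat1 and Snhg1 had r = -0.82 (permutation p = 0.00292, adjusted 0.0175) and rho = -0.80 (permutation p = 0.00917, adjusted 0.0413), with 0.082 within numbers 1 to 3, -0.86 within numbers 4 to 6 and -0.73 without the 2 farthest libraries. Meg3 and Gas5, whose promoters are shown above, had r = -0.77 (permutation p = 0.00069, adjusted 0.00621) and rho = -0.80 (permutation p = 0.00078, adjusted 0.00702), with 0.129 within numbers 1 to 3, -0.77 within numbers 4 to 6 and -0.82 without the 2 farthest libraries. Rian and Gas5 had r = -0.74 (permutation p = 0.00401, adjusted 0.0206) and rho = -0.79 (permutation p = 0.00261, adjusted 0.0157), and Rian and Snhg1 had r = -0.77 (permutation p = 0.00873, adjusted 0.0393) and rho = -0.84 (permutation p = 0.00306, adjusted 0.0157). Within numbers 1 to 3 and 4 to 6, without that subtraction, r was 0.441 and -0.22 for Rian and Gas5 and 0.085 and -0.16 for Rian and Snhg1. Without the 2 libraries farthest from the median of Rian the values were -0.77 and -0.91. Mirg, the closest in position to Rian, had r = 0.636 with it (permutation p = 0.0316, adjusted 0.0876) and rho = 0.622 (permutation p = 0.0333, adjusted 0.103), with 0.870 within numbers 1 to 3, 0.936 within numbers 4 to 6 and 0.345 without the 2 farthest libraries.

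**Figure D5:**
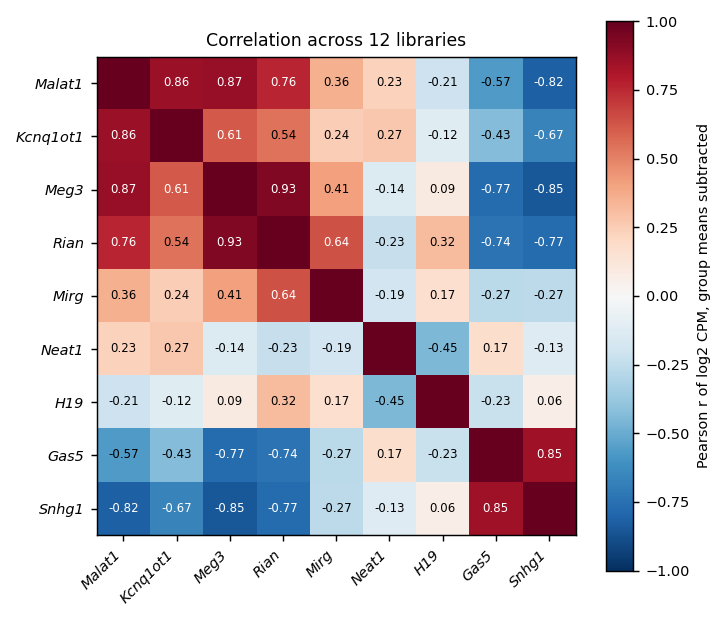
Pearson r of log2 CPM between each pair of the 9 RNAs across 12 libraries, with each group's mean subtracted; red cells are positive, blue cells negative, and each cell prints its r. Malat1, Kcnq1ot1, Meg3 and Rian form a red block (0.54 to 0.93), which is blue against Gas5 and Snhg1, although Kcnq1ot1 passed the test with Malat1 alone; Neat1 and H19 have no r beyond 0.45 in size.

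Several of the 9 RNAs also followed 2 measures of the whole library, both chosen after the data were seen. The first was the mean log2 CPM of 85 ribosomal protein genes. The second was a length balance, the mean log2 level of the 3793 longest tested genes minus that of the 3794 shortest, each relative to its mean over the libraries. This balance was below 0 in all 6 libraries with numbers 1 to 3 and above 0 in all 6 with numbers 4 to 6. Of 18 relations of the 9 RNAs with these measures, 12 had an adjusted Pearson p below 0.05 and 11 also an adjusted Spearman p below 0.05. The share of all genes that would pass with these measures was not computed, so the 12 relations are not shown to be particular to these RNAs. Snhg1 followed the ribosomal protein genes with r = 0.942 (permutation p = 1e-05, the smallest that the resamples can give, adjusted 0.00018) and rho = 0.972 (permutation p = 1e-05, adjusted 0.00018), and did so within numbers 1 to 3 (0.912), within numbers 4 to 6 (0.894) and without the 2 farthest libraries (0.899). Gas5 followed them with r = 0.903 (permutation p = 5e-05, adjusted 0.00045) and rho = 0.881 (permutation p = 5e-05, adjusted 0.00045), with 0.787, 0.761 and 0.841 in the same 3 subsets.

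For Meg3, without subtraction of group means, the correlations with both measures were smaller in size within numbers 1 to 3 than over the 12 libraries. Over the 12 they were then 0.949 with the length balance and -0.93 with the ribosomal protein genes. The values over the 12 libraries that follow had group means subtracted, as above, and those within a set of numbers had not. Its r with the length balance was 0.946 (permutation p = 0.0002, adjusted 0.00072; rho = 0.930, permutation p = 0.00026, adjusted 0.00135), with 0.472 within numbers 1 to 3, 0.848 within numbers 4 to 6 and 0.938 without the 2 farthest libraries. Its r with the ribosomal protein genes was -0.93 (permutation p = 0.00019, adjusted 0.00072; rho = -0.92, permutation p = 0.00058, adjusted 0.00204), with -0.40 within numbers 1 to 3, -0.91 within numbers 4 to 6 and -0.95 without the 2 farthest libraries. Malat1 had an r of 0.847 with the length balance (permutation p = 0.00618, adjusted 0.0124; rho = 0.790, permutation p = 0.0149, adjusted 0.0266), of 0.246 within numbers 1 to 3, 0.842 within numbers 4 to 6 and 0.714 without the 2 farthest libraries. Rian had an r of 0.829 with it (permutation p = 0.0034, adjusted 0.00765, and rho = 0.769, permutation p = 0.0118, adjusted 0.0236). This was 0.780 without the 2 farthest libraries. With group means not subtracted, r was -0.20 within numbers 1 to 3, of the other sign, and 0.414 within numbers 4 to 6. Neat1, with a model of 20771 bases, had an r of -0.08 with it (permutation p = 0.770, adjusted 0.867; rho = -0.10, permutation p = 0.752, adjusted 0.796). Whether these library measures set the levels of the RNAs was not tested.

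As a description, the genes whose log2 CPM was most like each RNA over the 12 libraries (Pearson r above 0.9, group means not subtracted, unnamed models left out) differed from one RNA to the next. Malat1 was nearest to Atp11a (r = 0.957), Dnajc1 (0.949) and Gltscr1l (0.949), and Neat1 to Akap10 (0.950) and Xdh (0.946). H19 was nearest to its own nested Mir675 (0.999), then to Vcp (0.968) and Murc (0.946), the second a caveola protein of muscle. Meg3 was nearest to its nested Mir1906-1 (0.982), then to Trrap (0.979) and Srcap (0.974), both large chromatin proteins, while Rian was nearest to Gfpt1 (0.917), Cemip (0.915) and Adam19 (0.914). Kcnq1ot1 was nearest to Arl14ep (0.918), Ccnt2 (0.908) and Tet1 (0.901). Gas5 was nearest to the ribosomal protein gene Rps27rt (0.948), then to Spcs1 (0.941) and Ier3ip1 (0.941), and Snhg1 to the ribosomal protein gene Rps15a (0.972), then to Jagn1 (0.971) and the ribosomal protein gene Rpl34 (0.962). Above 0.9 there were 223 genes for Snhg1, 167 for Meg3, 39 for Malat1, 32 for Gas5, 13 for H19, 8 for Rian, 3 for Kcnq1ot1, 2 for Neat1 and 0 for Mirg. The starts of Rps15a, Rpl34 and Rps27rt are printed beside those of Snhg1 and Gas5 above.

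The genes around the 9 RNAs were balanced between the groups: of 32 tested neighbours 16 had positive and 16 negative fold changes, with a median of -0.002 and 0 called. Without adjustment edgeR put 2 of the 32 higher and 2 lower at a p below 0.05, against 5.26% higher and 4.08% lower of all genes tested. Beside Cdkn1c the smallest p was that of Dio3os, the RNA opposite the thyroid hormone deiodinase gene Dio3 at the far end of the Meg3 cluster, with 1.13 ± 0.42 CPM in AVF-CKD and 0.446 ± 0.455 CPM in sham (SD, n = 6 each, log2 fold change 1.34 ± 0.48, SE, edgeR adjusted p = 0.458). Dio3os held only 9 to 68 counts per library, and its log2 fold change was 2.23 within numbers 1 to 3 and 0.64 within numbers 4 to 6. Dio3 itself was the other neighbour placed higher (log2 fold change 1.21 ± 0.48, SE, edgeR adjusted p = 0.494). The most abundant neighbours per length were Tnnt3, a fast skeletal muscle troponin close to H19, with 520 ± 512 CPM in AVF-CKD and 621 ± 457 CPM in sham, and Cd81, a membrane tetraspanin, with 274 ± 23.1 CPM in AVF-CKD and 319 ± 37.5 CPM in sham (log2 fold change -0.22 ± 0.09, SE, edgeR adjusted p = 0.496). Tnnt3 is itself one of the skeletal muscle markers.

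Genes listed as imprinted elsewhere in the genome had mostly negative fold changes, none of which passed edgeR's test. Whether each of them is imprinted in vein was not measured. Of 29 tested, 5 had positive and 24 negative fold changes, with a median of -0.18, against -0.002 and 50.9% negative over all genes, and 0 were called. Ndn, a growth-suppressing protein of neurons and fat precursors, had 34.6 ± 2.22 CPM in AVF-CKD and 45.01 ± 5.14 CPM in sham (SD, n = 6 each), with a log2 fold change of -0.38 ± 0.08 (edgeR, SE, adjusted p = 0.368). DESeq2 called it lower (adjusted p = 0.0157). Sgce, a membrane glycoprotein of the sarcoglycan complex, had 42.3 ± 1.75 CPM in AVF-CKD and 52.0 ± 8.10 CPM in sham (log2 fold change -0.30 ± 0.09, SE, edgeR adjusted p = 0.402). The most abundant were Dcn, a matrix proteoglycan and fibroblast marker, with 2660 ± 782 CPM in AVF-CKD and 3261 ± 736 CPM in sham, and Gnas, the stimulatory G protein subunit, with 829 ± 29.8 CPM in AVF-CKD and 939 ± 84.1 CPM in sham. Markers of several cell types also had negative fold changes: all 10 of fat (median -0.90), all 6 of endothelium (-0.16), 5 of 6 of smooth muscle (-0.35), 10 of 12 of skeletal muscle (-0.25) and all 5 tested of neck glands and epithelium (-0.69). Those of fibroblasts were split 3 and 3, and all 5 of macrophages (0.26) and all 6 of blood (0.26) were positive. The part of these cell types in the imprinted genes was not tested.

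Of 17 other long noncoding RNAs tested, 5 had positive and 12 negative fold changes, with a median of -0.05, and 0 were called. Over all genes tested, 50.9% were negative and the median was -0.002. Miat, a nuclear RNA named for its link to myocardial infarction, had 16.8 ± 7.44 CPM in AVF-CKD and 8.47 ± 2.02 CPM in sham (SD, n = 6 each), with a log2 fold change of 0.99 ± 0.28 (edgeR, SE, adjusted p = 0.390). Its log2 fold change was 0.09 ± 0.20 within numbers 1 to 3 and 1.69 ± 0.17 within numbers 4 to 6 (edgeR, SE, adjusted p = 0.891 and 0.410), a difference that was not tested. Dancr, a snoRNA host that holds back differentiation, had 4.68 ± 1.27 CPM in AVF-CKD and 6.13 ± 0.90 CPM in sham (log2 fold change -0.39 ± 0.18, SE, edgeR adjusted p = 0.526). The most abundant per length were Mir22hg, the host of miR-22, with 66.6 ± 3.13 CPM in AVF-CKD and 66.1 ± 7.84 CPM in sham, and 1700020I14Rik with 172 ± 22.2 CPM in AVF-CKD and 175 ± 26.3 CPM in sham.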

How the data were processed

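Vein RNA of 12 samples was sequenced, and sample titles gave the groups and numbers. Per gene, the deposited table gave counts, used as deposited, and RPKM, used for levels per length. The authors' RPKM values rest on library totals larger than the count sums by a factor of 1.15 to 1.19, computed from the table. The submitters' processing notes name GRCm38, TopHat2 2.1.0, featureCounts and edgeR, and give no annotation release or strand setting. Counts were filtered with filterByExpr, scaled with TMM and tested with edgeR 4.0.16 in R 4.3.3, with group as the term. DESeq2 1.42.0 and limma 3.58.1 voom were alternatives, beside other scalings and filters, the replicate block and leaving out each library. CPM scales counts to the library's total times its TMM factor, and log2 CPM uses a prior count of 2. Ratios and shares had exact permutation tests over 924 assignments (smallest p 0.00216), correlations 100000 resamples. GENCODE M21 gave exons and strands, matched by identifier except for Snhg1, matched by symbol. Ribosomal DNA models (2) held 3.89% to 7.46% of counts and mitochondrial copies (9) 2.06% to 3.81%. Named were the 9 RNAs, of each gene list the 2 most abundant by RPKM and the 2 of smallest p, 3 imprinted partners, and for each RNA up to 3 genes of highest r. Kcnq1, Rtl1 and Dio3 were named outside that rule, after their values were seen. The 9 RNAs and the lists were chosen with earlier results of these data known. Scripts were tested on simulated data.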

Additional observations from a re-analysis of the deposited data

How the results depend on the processing

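Over 25 alternatives, 0 of the 9 RNAs were ever called, and 218 of 225 of their log2 fold changes kept their direction. DESeq2 called 67 genes higher and 39 lower, against 0 and 0 with edgeR. Leaving out 1 library at a time gave 0 to 1 genes called higher, the 1 without AVF-CKD 3. Within title numbers 1 to 3 the log2 fold change turned to -0.29 for Malat1, -0.12 for Meg3, 1.05 for Tnnt3, 0.046 for Gnb2l1, 0.00032 for Hnrnpk, 0.019 for 1700020I14Rik and 0.22 for Dlk1. Within numbers 4 to 6 it turned to -0.44 for H19, 0.068 for Mirg, 0.050 for Kcnq1ot1, 0.087 for Dcn and -0.31 for Igf2. With limma voom Hspa8 turned to 0.0087. Leaving out 1 library gave -0.076 to 0.47 for H19 (turned without AVF-CKD 6), -0.13 to 0.011 for Kcnq1ot1 (without sham 4), 0.069 to 0.32 for Malat1 (lowest without AVF-CKD 5), 0.10 to 0.21 for Neat1, 0.056 to 0.31 for Meg3 (lowest without AVF-CKD 6), -0.19 to -0.046 for Rian (without AVF-CKD 6 and sham 5), -0.16 to -0.0038 for Mirg (without AVF-CKD 6 and sham 2), -0.26 to -0.14 for Gas5, -0.18 to -0.070 for Snhg1 (nearest 0 without AVF-CKD 5), -1.56 to -0.36 for Dlk1 (nearest 0 without sham 5), -0.92 to 0.19 for Tnnt3, -0.13 to 0.011 for Gnb2l1, -0.081 to 0.041 for Hspa8, -0.032 to 0.063 for Mir22hg and -0.088 to 0.055 for 1700020I14Rik. It gave 0.32 to 1.29 for the Meg3 to Dlk1 log2 ratio, the highest without sham 1 (exact permutation, adjusted p = 0.026). The causes were not tested.

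The labels do not say whether the title numbers pair the samples. Same-numbered libraries had correlations of -0.11 to 0.28 in their deviations, and 2 of 6 AVF-CKD libraries were closest to the sham library of their number. These values cannot decide whether the samples were paired. With the number as a replicate block edgeR called 0 genes (2058 at an unadjusted p below 0.05, against 1772 without it), and Gas5 had an unadjusted p of 0.00771 and an adjusted p of 0.418. Intervals of 95% lay within a factor of 2 for 86.7% of genes, so smaller differences between the groups were often not detectable at this spread.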
